A study of Mus musculus with 2 samples.

Results

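The insulin-like growth factor (IGF) genes described here were the ligands Igf1 and Igf2, the receptors Igf1r and Igf2r, and the binding proteins Igfbp2 to Igfbp7. They are 10 of the 18193 genes on the array, chosen by gene symbol, and 28 of the 34945 probe sets that carry a single symbol belong to them. RNA was taken on day 4 of pregnancy from stromal cells of C57BL/6 uteri, around the time the blastocyst attaches. Of the 2 arrays, 1 held pooled RNA of Msx1Msx2-null mice, in which PRcre had removed floxed alleles of both homeobox genes in the uterus, and 1 held pooled RNA of Msx1Msx2 floxed controls. PRcre puts Cre under the progesterone receptor gene and so acts in every uterine cell type that expresses the receptor, epithelium included. The labels disagree on the number of mice pooled for each genotype, which is 5 in the design text and 4 in the extraction step.

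IGF1 and IGF2 are secreted growth factors that signal through the type 1 receptor, a tyrosine kinase that feeds the PI3 kinase and MAP kinase pathways. The IGF2 receptor binds IGF2 and takes it to lysosomes without growth signalling. Binding proteins hold the ligands outside the cell, and proteases that cut the binding proteins release them. In the mouse uterus Igf1 is produced mainly by the stroma, is induced by estrogen, and acts on the epithelium.

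With 1 array of pooled RNA per genotype there was no replicate error and no p-value. A difference between the arrays may come from genotype, the mice in the pool or the hybridization, and in such bulk RNA fewer cells of a type and less RNA per cell cannot be told apart. All values are linear MAS5 signals of a probe set, a group of short probes for one transcript. Signals are compared between arrays within a probe set or, for lists of cell type markers, as sums over the genes' brightest probe sets. Such a sum is set largely by the brightest genes of its list. A floor at the median of all non-control probe sets, 30.1 in the null and 31.0 in the control array, stood in for detection calls. A gene is represented by its brightest probe set unless another is named, and log2 ratios are null minus control. As a yardstick of probe noise, the log2 ratio of a single probe set had an SD of 0.27, estimated from pairs of probe sets of 4690 genes. Variation among mice or hybridizations is not part of this SD.

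Msx1 had a signal of 23.0 in the null and 1581 in the control array on its brightest probe set, and Msx2 had 14.5 in the null and 63.7 in the control array. The null signals of both genes were under the floor. The other Msx2 probe set was under the floor in both arrays, so the Msx2 reading rests on 1 fairly dim probe set. Defining stromal markers were above the floor for 8 of 8 genes, but so were 6 of 6 epithelial markers, although epithelial clumps had been discarded. The summed epithelial marker signal was 7629 in the null and 9576 in the control array. The 3'/5' signal ratio of Gapdh, which goes up with RNA degradation, was 1.28 in the null and 0.967 in the control array. That of Actb was 2.33 in the null and 1.80 in the control array, so both ratios were higher in the null array.

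Upstream sequences are shown because the ablated genes encode homeodomain transcription factors. They are those of the measured members with the lowest and the highest log2 ratio, and of the stromal ligand. RefSeq promoters (GRCm38.p6) were found for 10 of 10 members, 14 in all, and the 250 bases before each start were searched. Capitals mark the letters TAAT (the core of many homeodomain sites), TATA, or GGGCGG (a GC box), on either strand. TATA reads the same on both strands, and TAAT and TATA can overlap. The Igfbp3 window lies at chr11:7213924-7214173 (minus strand), the Igfbp5 window at chr1:72874866-72875115 (minus strand) and the Igf1 window at chr10:87860861-87861110 (plus strand).
Igfbp3: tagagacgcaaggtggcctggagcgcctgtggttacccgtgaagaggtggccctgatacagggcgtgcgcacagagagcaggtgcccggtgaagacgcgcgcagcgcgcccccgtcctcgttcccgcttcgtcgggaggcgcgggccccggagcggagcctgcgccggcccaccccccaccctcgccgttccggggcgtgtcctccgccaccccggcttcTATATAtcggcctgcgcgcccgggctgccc
Igfbp5: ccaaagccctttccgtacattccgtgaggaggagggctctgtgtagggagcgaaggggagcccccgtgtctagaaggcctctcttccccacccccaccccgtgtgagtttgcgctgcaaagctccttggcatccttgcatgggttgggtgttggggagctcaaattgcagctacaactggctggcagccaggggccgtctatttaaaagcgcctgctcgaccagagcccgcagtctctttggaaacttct
Igf1: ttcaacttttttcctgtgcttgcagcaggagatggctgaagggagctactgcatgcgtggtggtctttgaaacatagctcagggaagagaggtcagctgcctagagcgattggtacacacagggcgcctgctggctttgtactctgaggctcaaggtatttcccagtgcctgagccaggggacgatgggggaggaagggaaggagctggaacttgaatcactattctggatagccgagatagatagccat
The Igfbp3 window held 32 CpG dinucleotides and a G+C share of 73.2%, against medians of 6 and 52.4% over all 32851 promoter windows. This does not set it apart, since members that stayed within 2-fold had similar windows. That of Igf1r held 42 CpG dinucleotides (G+C share 77.6%) and that of Igfbp7 held 26 (74%). The capitals of the Igfbp3 window are 2 overlapping copies of TATA close to the start. The Igfbp5 window, with 10 CpG dinucleotides, and the Igf1 window, with 5, held none of the letters searched. TAAT occurred in 2 of the 14 member windows, both of Igf2, and in 54.9% of all windows. TATA occurred in 3 of 14 (Igfbp3, Igfbp4 and Igfbp6) and in 34.0% of all windows. GGGCGG occurred in 6 of 14 and in 32.7% of all windows. These shares are not a like background, because most member windows had a G+C share above the median of 52.4%. TAAT and TATA hold only A and T, and Igf2 supplied 4 of the 14 windows. The counts therefore show no lack or excess of a motif in the members. The missing letters say nothing of whether a factor acts on these genes, since only this window was read.

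Among the 10 members, Igfbp3 alone passed 2-fold, and it was lower in null cells. Of the 9 members above the floor in at least 1 array, 1 was at least 2-fold lower and 0 were higher by that much. The background was 1.8% of 11833 measured genes for the lower side and 1.59% for the higher side. Log2 ratios were below 0 for 7 members and above 0 for 2, where 47.7% of all measured genes were below 0. The median of the members was -0.17, against 0.02 over all measured genes, whose central quartiles ran from -0.21 to 0.24. For 4 members, Igf1, Igf2r, Igfbp4 and Igfbp6, the ratio was smaller than the SD of a single probe set. The 10th member, Igfbp2, was under the floor in both arrays.

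**Figure D1:**
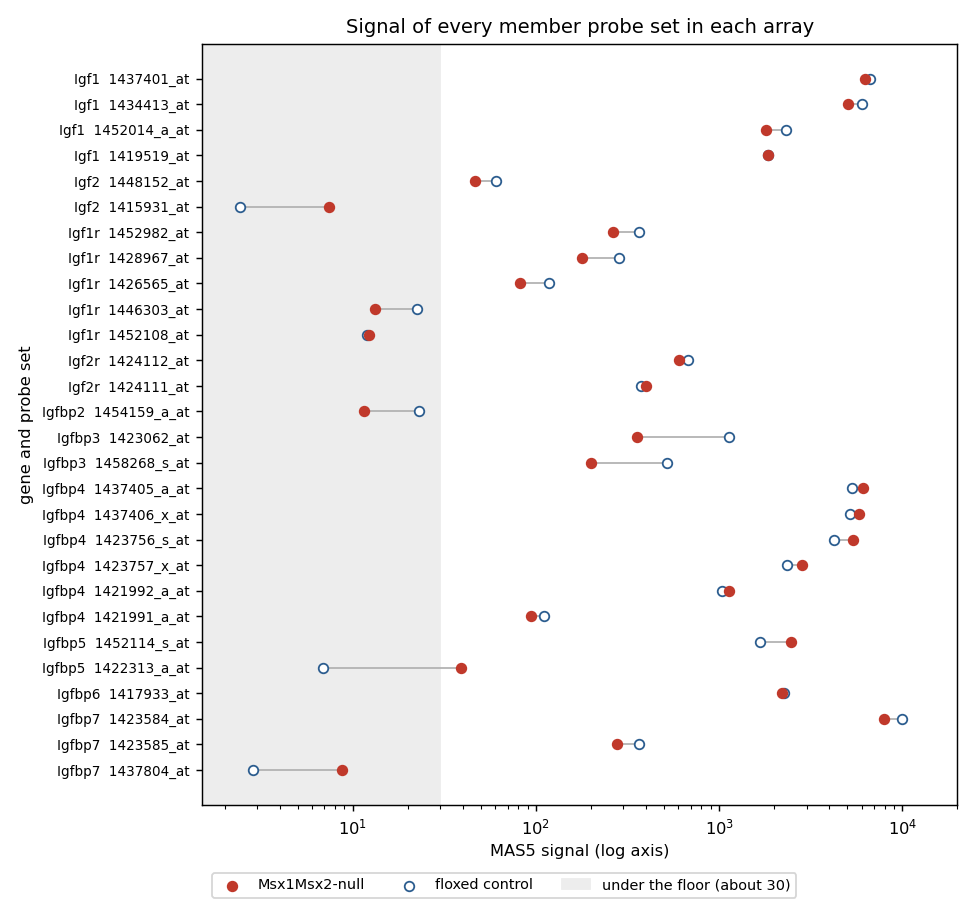
MAS5 signal (log axis) of each of the 28 member probe sets, with filled points for the null array, open points for the control array, and the range under the floor shaded. The pair of Igfbp3 probe sets shows the widest gaps outside the shaded range, at 354 and 200.4 in the null array against 1128 and 517 in the control array, while most bright pairs nearly coincide.

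The ligand Igf1 was bright in both arrays and its signals lay close together. Its brightest probe set, 1437401_at, had a signal of 6281 in null and 6657 in control cells, a log2 ratio of -0.08. The other 3 probe sets had signals of 5037, 1793 and 1859 in null cells, against 6000, 2304 and 1845 in control cells. Their log2 ratios of -0.25, -0.36 and 0.01 did not share a sign, and none reached 1.3-fold. Ratios lower than that of Igf1 were found in 37.6% of measured genes.

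Igf2, the imprinted fetal ligand that is expressed from the paternal allele in most tissues, was dim. Probe set 1448152_at had a signal of 46.5 in null and 60.5 in control cells, a log2 ratio of -0.38 close above the floor. The other Igf2 probe set lay under the floor, at 7.43 in null and 2.43 in control cells, so that it gives no ratio. The Igf2 difference thus rests on a single dim probe set.

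The signalling receptor gene Igf1r was lower in null cells on all 3 of its probe sets above the floor, by less than 2-fold. Probe set 1452982_at had 264 in null and 366 in control cells, 1428967_at had 178 in null and 284 in control cells, and 1426565_at had 81.5 in null and 118 in control cells. The log2 ratios were -0.47, -0.67 and -0.54, or 1.39-fold to 1.59-fold lower. Among the 1819 genes with at least 3 such probe sets, 39.5% had ratios of 1 sign throughout. On the brightest probe set, 1180 of the 11833 measured genes (9.97%) had a lower ratio. The remaining 2 Igf1r probe sets were under the floor in both arrays.

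Igf2r, which clears IGF2 and also carries mannose 6-phosphate enzymes to lysosomes, had no common direction. Probe set 1424112_at had 606 in null and 680 in control cells, and 1424111_at had 401 in null and 376 in control cells. Their log2 ratios of -0.17 and 0.09 are both smaller than the probe set SD.

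Igfbp3 encodes the main IGF carrier of serum, which also acts locally on cells, and was the member with the largest difference. On probe set 1423062_at its signal was 354 in null and 1128 in control cells, 3.18-fold lower, a log2 ratio of -1.67. The other probe set, 1458268_s_at, gave 200.4 in null and 517 in control cells, 2.58-fold lower (log2 ratio -1.37). All Igfbp3 signals were well above the floor, and both probe sets were lower in null cells. Of the 4690 genes with 2 or more probe sets measured in both arrays, 23 (0.49%) were at least 2-fold lower on every one. By its brightest probe set, 51 measured genes (0.431%) had a lower ratio than Igfbp3. The suffix _s_at marks probes that can match several transcripts, and 1423062_at carries no such suffix. The genes with the nearest log2 ratios over the 2 arrays were Car12 (a carbonic anhydrase), Prss12 (a serine protease) and Hp (haptoglobin). Car12 had a signal of 386 in null and 1230 in control cells. Prss12 had 37.8 in null and 120.3 in control cells, and Hp had 73.5 in null and 237 in control cells. Their gaps to the Igfbp3 ratio were at most 0.017, and with 1 array per genotype such likeness means only an equal ratio.

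**Figure D2:**
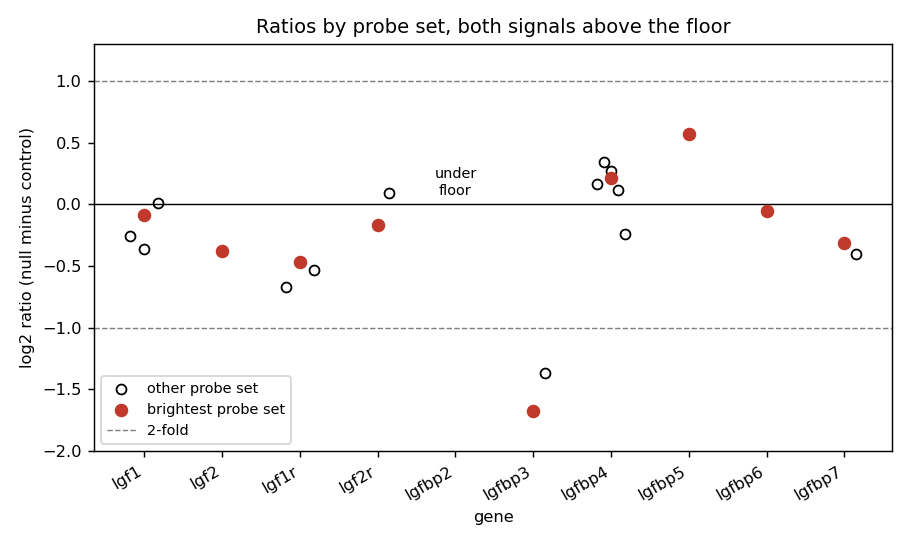
Log2 ratios (null minus control, vertical axis) of the member probe sets measured on both arrays, by gene, with the brightest probe set filled and the others open; dashed lines mark 2-fold. Both Igfbp3 points lie below the lower dashed line, at -1.67 and -1.37, and the other 20 points lie between the lines.

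Igfbp5, a matrix-binding IGF carrier, differed in the other direction. Probe set 1452114_s_at had a signal of 2483 in null and 1675 in control cells, 1.48-fold higher, a log2 ratio of 0.57. The second probe set, 1422313_a_at, had 39.0 in null cells and 6.90, under the floor, in control cells, which bounds it at 1.26-fold higher or more. Of all measured genes, 854 (7.22%) had a higher ratio than Igfbp5. Its bright value rests on 1 probe set of the _s_at kind. Igfbp2, which neighbours Igfbp5 in the mouse genome, was under the floor at 11.6 in null and 22.9 in control cells, and no fold is given. Igfbp1, the neighbour of Igfbp3 and a decidual product in humans, was under the floor too, at 0.787 in null and 1.68 in control cells.

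Igfbp4, which inhibits IGF action until the protease PAPP-A cuts it, was bright and close in both arrays. Probe set 1437405_a_at had 6135 in null and 5304 in control cells, a log2 ratio of 0.21. Of its 6 probe sets, 5 were higher in null cells and 1 lower, with log2 ratios from -0.24 to 0.35. The lower one, 1421991_a_at, was the dimmest, at 94.1 in null and 111 in control cells.

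Igfbp6, a binding protein that prefers IGF2, had a signal of 2193 in null and 2271 in control cells on its only probe set, a log2 ratio of -0.05. Igfbp7, a low-affinity relative that is abundant in blood vessels, was somewhat lower. It had 7988 in null and 9929 in control cells on 1423584_at, and 275 in null and 365 in control cells on 1423585_at. The log2 ratios of -0.31 and -0.40 share a sign, as they did in 53.7% of genes with at least 2 probe sets above the floor. The third Igfbp7 probe set was under the floor in both arrays.

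**Figure D3:**
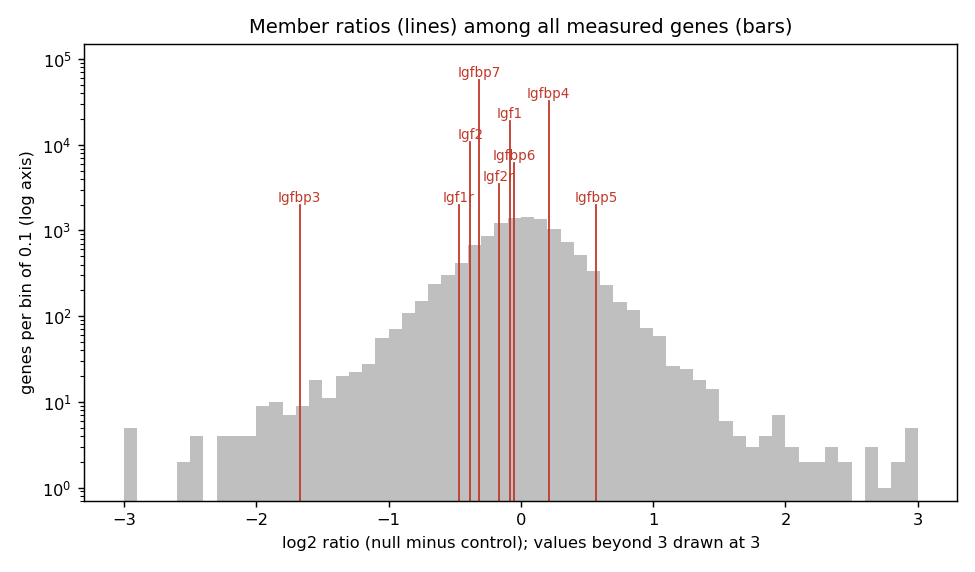
Distribution of log2 ratios (null minus control) of all 11833 measured genes, as the number of genes per bin on a log axis, with a line at the ratio of each of the 9 measured members; line heights only separate the labels. Igfbp3 at -1.67 lies in the lower tail, and the other members lie between -0.47 and 0.57.

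Some cell type markers differed in the same direction as Igfbp3, and their part in its difference was not tested. All 5 gland markers were at least 2-fold lower, with a summed signal of 463 in null and 7273 in control cells. All 6 endothelial markers had negative log2 ratios, from -0.89 to -0.28, none past 2-fold, and summed to 2152 in null and 3305 in control cells. Of 6 pericyte markers 5 were below 0, with sums of 6441 in null and 9204 in control cells. All 5 macrophage markers were below 0, with sums of 2441 in null and 3843 in control cells. Ratios below 0 were also found for 7 of the 9 measured members, so lying on that side does not set a member apart. Stromal markers did not share that direction: 7 of 8 had positive ratios, the median was 0.44, and the sums were 38745 in null and 35717 in control cells. The ratios of Pdgfra (0.04), Col3a1 (0.05) and Dcn (-0.10) were smaller than the probe set SD. Other probe sets gave -0.01 for Hand2, -0.07 for Col3a1 and 0.58 for Dcn, so the sign of these genes was not settled. Of 6 epithelial markers 5 were below 0, Krt18 at least 2-fold lower, and Krt19 was at least 2-fold higher, with a median of -0.11. The ratios of Epcam (-0.07), Cdh1 (-0.10) and Cldn3 (-0.13) were smaller than the probe set SD. Other probe sets reached 0.47 for Epcam and 0.31 for Cldn3, so the epithelial list had no common direction. Of 6 smooth muscle markers 5 were above 0 (sums of 12655 in null and 9798 in control cells), as were 3 of 3 natural killer cell markers (1425 in null and 799 in control cells). The 4 mesothelial markers were under the floor in both arrays. No marker had a signal of 0.

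Around the members, genes for proteases that act on IGF binding proteins, or for inhibitors of such proteases, included 3 that were at least 2-fold higher in null cells. Of 41 partner genes on the array 35 were measured, 3 of them at least 2-fold higher, against 1.59% of all measured genes, and 0 lower by as much, against 1.8%. The median log2 ratio of the 35 was 0.12, against 0.02 over all measured genes. All 3 came from the protease list, of which 11 of 12 genes were measured, 8 above 0 and 3 below, with a median of 0.50. The partner lists were chosen with earlier results of these data known. Setting their counts and medians beside those of all genes therefore cannot show an excess.

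Htra1, a secreted serine protease that cuts IGFBP5, had a signal of 2435 in null and 1138 in control cells, 2.14-fold higher, and its other probe set gave a log2 ratio of 1.03 where the brightest gave 1.10. Ctsd, the lysosomal protease cathepsin D, which can cut binding proteins at acid pH, had 5821 in null and 2792 in control cells, 2.08-fold higher on its only probe set above the floor. Stc1, a stanniocalcin that inhibits PAPP-A, had 67.2 in null and 31.6 in control cells, 2.13-fold higher with the control signal barely above the floor. With a pseudocount of 16 its log2 ratio was 0.81, and under the 65th percentile floor Stc1 was not measured. Adam12, a metalloprotease that cuts IGFBP3 and IGFBP5, had 1663 in null and 937 in control cells (log2 ratio 0.83), but its other probe set gave -0.17. Pappa itself, the PAPP-A gene, was dim at 52.6 in null and 37.1 in control cells (log2 ratio 0.50). Of the 3 genes past 2-fold, Htra1 was read by 2 probe sets above the floor, while Ctsd and Stc1 were read by 1 each.

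Genes of receptor signalling were split on their brightest probe sets, with 8 of 16 above 0, 8 below and 0 past 2-fold. Pik3r1 was lower in null cells on all 4 of its probe sets above the floor (-0.77 to -0.27). Gab1 was higher on 2 of 2 (0.25 and 0.37). Akt1 and Akt2 had log2 ratios of 0.16 and -0.001, but their other probe sets gave -0.79 and -0.76. Foxo3, a transcription factor that Akt switches off, had 582 in null and 329 in control cells (log2 ratio 0.82), and its other probe set gave 0.04. Irs1, an adaptor of the IGF1 and insulin receptors, had 1281 in null and 925 in control cells (0.47), whereas its relative Irs2 had 41.8 in null and 66.4 in control cells (-0.67), near the floor. Pdpk1, the kinase that activates Akt, had 311 in null and 408 in control cells (-0.39), and its other probe set gave -0.06. Insr, the insulin receptor, had 278 in null and 302 in control cells (-0.12).

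In the growth hormone list, which covers the hormone that drives Igf1 in the liver, 4 of 5 genes were measured and 0 passed 2-fold. The receptor gene Ghr had 450 in null and 448 in control cells, and the feedback inhibitor Socs2 had 965 in null and 1014 in control cells. The other Ghr probe set gave a log2 ratio of -0.29, and the 5 Socs2 probe sets above the floor ran from -0.36 to 0.23. The transducers Stat5a and Stat5b had log2 ratios of 0.44 and 0.31. Of 6 further binding proteins, 4 were measured. Vtn (vitronectin), which binds IGF2 and binding proteins, had 73.1 in null and 117 in control cells, a log2 ratio of -0.68. Esm1, an endothelial proteoglycan, had 52.4 in null cells and 29.6, under the floor, in control cells. The proposed IGFBP3 receptors Lrp1 and Tmem219 had log2 ratios of -0.04 and 0.12, although the other Lrp1 probe set gave 1.17. Both genes of the RNA list found on the array, Igf2bp1 and Igf2bp3, which bind Igf2 mRNA, were under the floor in both arrays.

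**Figure D4:**
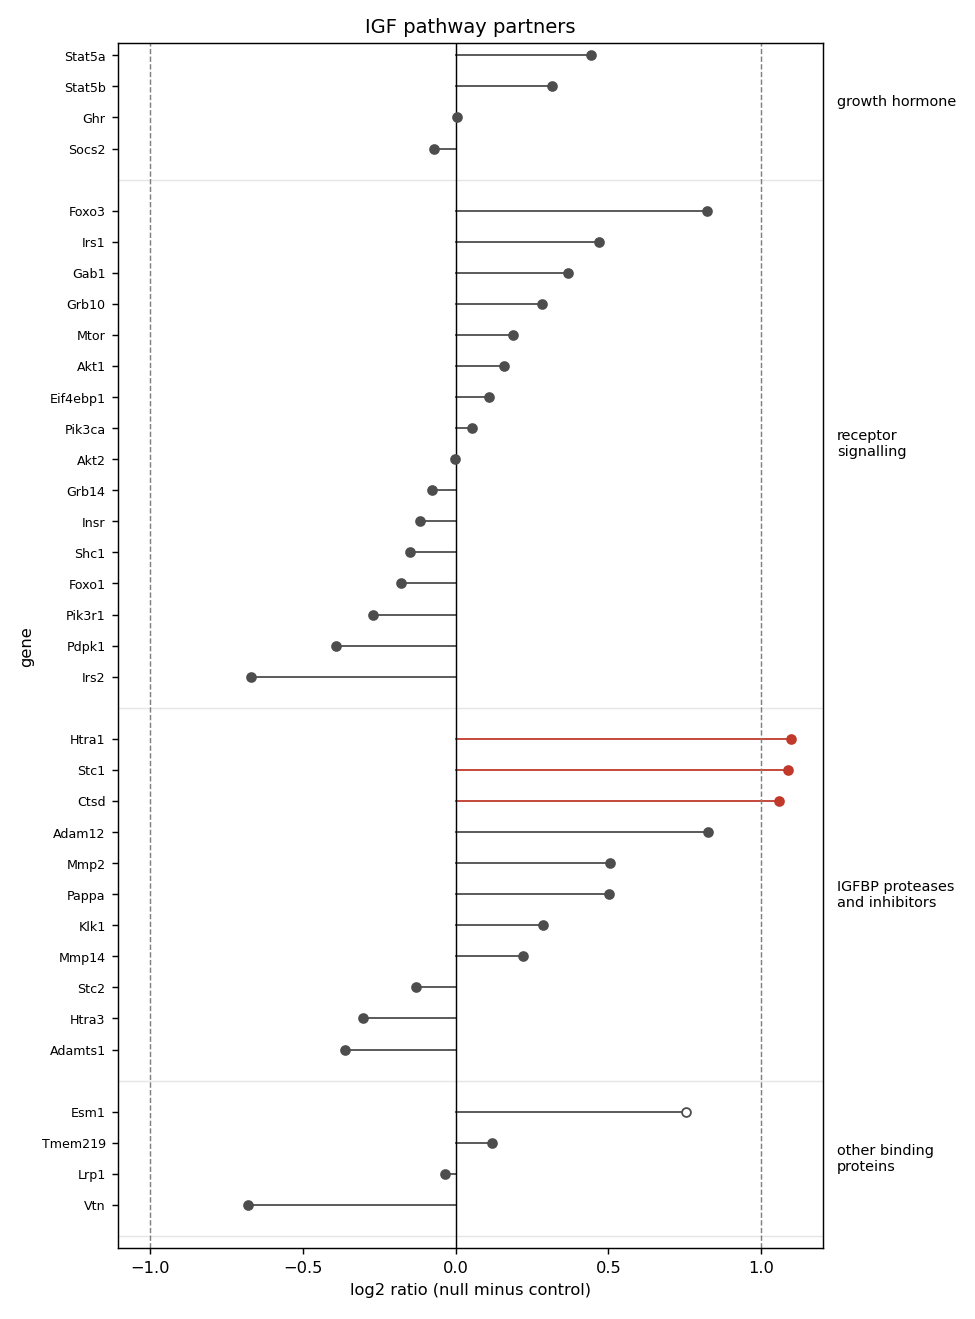
Log2 ratio (null minus control, horizontal axis) of the 35 measured partner genes by list; dashed lines mark 2-fold, red marks genes past it, and an open point has 1 signal under the floor. Htra1, Stc1 and Ctsd lie just past the upper line, at 1.10, 1.09 and 1.06, and the other genes lie between the lines.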

How the data were processed

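RNA of pooled uterine stromal cells was measured on 1 Affymetrix array per genotype. The deposited intensity values are linear, 1 per probe set. The submitters' processing notes name MAS5 and Affymetrix Expression Console 1 as the authors' tools. MAS5 subtracts background and mismatch signal, which makes ratios of dim probe sets noisy. The trimmed mean signal (2% removed at each end) was 150.0 in both arrays, so the authors had brought both to a shared scale. Background settings and detection calls are not given in the sources used here.

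The table held 45101 probe sets, 64 of them Affymetrix controls. The platform annotation gave 1 symbol for 34945, several for 932 and none for 9160, and only the first kind was used. Signals were turned into log2 values in Python 3.11.15 with pandas 2.3.3. The floor was the 50th percentile of non-control probe sets. A signal under it was raised to it, and the fold is then a bound. A gene was measured if 1 of its brightest probe set's signals was above the floor (11833 of 18193 genes). With 1 array per genotype the number of arrays limits precision, no test was run, and genes were called at 2-fold. The calculation was tested on simulated data.

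The members, partner and marker lists and alternatives were chosen with earlier results of these data known. The naming rule took all members, partner genes past 2-fold, otherwise up to 4 per list with the largest ratios, 3 genes nearest to the ratio of the most different member, Msx1, Msx2, Pgr and the marker lists. Insr, Pik3r1, Gab1, Akt1, Akt2, Pappa, Igfbp1, Igfals, Igfbpl1, Igf2bp1 and Igf2bp3 were named after their values were seen. H19 and Igf2bp2, in the partner lists, and Klrb1c, in the marker lists, were not analysed here. Alternatives were 2 other floors, the median over probe sets, leaving out _x_at and _s_at probe sets, median centring, quantile normalization and a pseudocount of 16.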

Additional observations from a re-analysis of the deposited data

How the results depend on the processing

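No paired analysis was possible because each genotype had 1 array. Over the 7 alternatives, Igfbp3 was the 1 member at least 2-fold lower and 0 were higher, with log2 ratios of -1.68 to -1.52. Of the 62 alternative log2 ratios of the 9 measured members, 60 had no signal raised to the floor, and these moved by less than the probe set SD of 0.27 and kept their sign. Many of the 60 could not move. A changed floor, or leaving out _x_at and _s_at probe sets, gives the same ratio wherever the brightest probe set is kept. Median centring shifts every ratio by the same amount. The count is therefore no measure of how firm the ratios are. Those of Igf1r ran from -0.54 to -0.42 and those of Igfbp5 from 0.55 to 0.61. The other 2 values, both of Igfbp5, are bounds and do not show how far its ratio moved. They were 0.33 without _x_at and _s_at probe sets and 0.45 for the median over probe sets. Igf2 was under the 65th percentile floor in both arrays and has no value there. With no floor, 5 partner genes were at least 2-fold higher and 1 lower, the additional ones (Igfals, Igfbpl1 and Igfbp1) being under the floor in both arrays. The count of 3 higher partner genes became 2 with the 65th percentile floor, which left Stc1 unmeasured, and 2 with the pseudocount of 16, where Stc1 had a log2 ratio of 0.81. Over all genes, leaving out the floor gave 1797 higher and 1772 lower genes, and the 65th percentile floor gave 97 and 123, where the counts as reported were 188 and 213. These follow from how many dim probe sets are read. Dim signals limit what can be said of Igf2, Igfbp2, Igfbp1 and Stc1.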

Other observations

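A probe set annotated to both Airn, the antisense RNA that silences paternal Igf2r, and Igf2r was kept out of the comparison because it carries 2 symbols. Its signal was 25.9 in null and 15.96 in control cells, under the floor in both arrays. Pgr, the gene that carries the PRcre insertion, had 2663 in null and 1891 in control cells on its brightest probe set (log2 ratio 0.49). The remaining 2 Pgr probe sets gave 0.24 and 0.52.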
